A study of Homo sapiens with 12 samples.

Results

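Transcripts of 10 genes of the integrated stress response were followed in human endometrial cells cultured with AG-205, a small molecule sold as a ligand of the membrane protein PGRMC1. The genes were ATF4, DDIT3, ATF3, TRIB3, ASNS, CHAC1, SESN2, PSAT1, DDIT4 and PHGDH, and each of the 10 symbols matched 1 identifier among the 58735 genes of the count matrix. RNA had been sequenced from 12 libraries in 4 groups of 3. HEC-1A cells, a line from an endometrial adenocarcinoma of epithelial type, and T-HESC cells, endometrial stromal cells immortalised with telomerase, received 15 µM AG-205 or its solvent DMSO for 32 h in serum-containing medium without phenol red, progesterone or transfection. The RNA came from 3 independent culture experiments on 1 established line of each kind, so the spread between libraries is that of repeated cultures of a line and not of different donors. Total counts per library ran from 7168542 to 15178276. Levels are given as CPM, the read count scaled to the library total with TMM factors, with SD over the 3 libraries of a group, and folds come from edgeR quasi-likelihood tests with Benjamini-Hochberg adjustment over all genes tested. A change was called where the adjusted p was under 0.05 and the log2 fold change exceeded 1 in either direction. Counts of genes at an unadjusted p under 0.05 are given without the share of all genes at that level. They therefore do not set a group of genes apart.

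The integrated stress response begins when a kinase phosphorylates the translation initiation factor eIF2. General translation slows, while the mRNA of ATF4, a transcription factor, is translated better, so that ATF4 is controlled largely at the protein level. ATF4 then raises the transcription of other factors such as DDIT3 (CHOP) and ATF3, of feedback regulators, and of enzymes that make or carry amino acids. Endoplasmic reticulum stress, amino acid shortage, haem shortage and double-stranded RNA each act through their own eIF2 kinase.

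The lines differed in the markers of their labels, although keratins were present in both. In T-HESC, EPCAM and CDH1, which define epithelial cells, averaged 0.333 ± 0.151 and 0.2 ± 0.049 CPM with DMSO (SD, n = 3), and the summed level of 6 stromal markers was 18127.1 to 26185.6 CPM. In HEC-1A the same 6 stromal markers summed to at most 14.7 CPM and EPCAM averaged 243 ± 12.9 CPM. The 6 epithelial markers summed to 1299.4 to 1458.9 CPM in HEC-1A and to 238 to 342 CPM in T-HESC with DMSO. KRT19, a keratin, was at 96.7 to 104 CPM in HEC-1A and at 103 to 110 CPM in T-HESC with DMSO. KRT18, another keratin, averaged 357 ± 30.7 and 155 ± 39.4 CPM there. Of 5 leukocyte and endothelial markers, 3 had at most 3 counts in each of the 12 libraries. The biological coefficient of variation estimated by edgeR was 10.1% for HEC-1A and 33.6% for T-HESC. The AG-205 library of T-HESC replicate 1 stood apart on the first principal component of its line (85.4, against -33.8 to 1.97 for the other libraries). Results of the 10 genes in T-HESC are given with that library, and those of DDIT3, TRIB3, CHAC1 and SESN2 also without it.

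ATF4 binds DNA with a C/EBP partner at the C/EBP-ATF response element. Its letters TGATGNAAN (N is any base) were searched on both strands in RefSeq promoter windows of GRCh38.p14, from 250 bases before to 50 after each transcription start. All 10 genes had at least 1 window, 16 in all. The element was in 3 of these 16 windows and in 3.61% of the 35093 windows of all genes. The cAMP response element TGACGTCA, which ATF3 and related factors recognise, was in none of the 16 and in 1.85% of all windows. The 3 matches are shown with 30 bases on each side, because they are the places in these windows where the letters of the ATF4 site were found, with the match in capitals and positions counted from the start site:
ASNS, chr7:97872438-97872506, minus strand, match at -68 to -60: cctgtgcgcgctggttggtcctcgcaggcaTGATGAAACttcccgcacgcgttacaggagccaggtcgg
CHAC1, chr15:40953231-40953299, plus strand, match at -210 to -202, the element on the opposite strand: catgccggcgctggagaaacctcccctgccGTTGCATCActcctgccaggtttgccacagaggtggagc
ATF3, chr1:212565186-212565254, plus strand, match at -191 to -183 in the window of the more upstream of its 2 starts: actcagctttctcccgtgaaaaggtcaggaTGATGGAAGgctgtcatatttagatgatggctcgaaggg
The match is a description of these letters alone. DDIT3, TRIB3, SESN2, PSAT1, DDIT4, PHGDH and ATF4 held no match within these windows, which says nothing of sites farther away.

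Most of the 10 genes stood at different levels in the lines without AG-205. With DMSO alone, 7 genes were called lower in T-HESC than in HEC-1A, where 22.3% of the 14789 genes tested were called lower, and 1 (PHGDH) was called higher, where 22.3% were called higher. The median log2 difference of the 10 genes was -2.25, against -0.02 for all genes tested. The mRNA of the shared regulator ATF4 was close between the lines. ATF4 (ENSG00000128272, chr22:39519695-39522683, GRCh38) was measured at 344, 297 and 321 CPM in the HEC-1A DMSO libraries and at 375, 372 and 273 CPM in those of T-HESC. These ranges overlapped, and the log2 difference was 0.07 ± 0.135 (SE, edgeR, adjusted p = 0.641). Without T-HESC DMSO replicate 3 the log2 difference was 0.25 with an edgeR adjusted p of 0.0135, below the fold limit. ATF4 has 4 named pseudogenes, whose reads the counting could have exchanged with it.

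Among the transcription factors that ATF4 induces, DDIT3 and ATF3 behaved differently in this comparison with DMSO. DDIT3 (CHOP, ENSG00000175197, chr12:57516588-57521737), a factor linked to stress-induced cell death, was at 31.6, 26.7 and 28.7 CPM in HEC-1A with DMSO and at 12.5, 12.8 and 8.19 CPM in T-HESC, so every HEC-1A library was above every T-HESC library (log2 difference -1.38 ± 0.178, edgeR adjusted p = 0.00013). ATF3 (ENSG00000162772, chr1:212565334-212620777), an early stress-responsive repressor and activator, was at 6.83, 5.26 and 6.02 CPM in HEC-1A and at 9.49, 8.7 and 1.8 CPM in T-HESC. Its T-HESC libraries lay on both sides of those of HEC-1A (0.15 ± 0.471, adjusted p = 0.781), and without T-HESC DMSO replicate 3 the log2 difference was 0.62 with an edgeR adjusted p of 0.0038. Of the exon length of DDIT3, 27.2% overlaps MARS1 on the opposite strand, and the sources used here do not state whether counting used the strand.

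The feedback and metabolic genes made up the rest of the gap. TRIB3 (ENSG00000101255, chr20:362835-397559), a pseudokinase that restrains ATF4 and AKT, was at 500, 474 and 470 CPM in HEC-1A with DMSO and at 19.5, 24.3 and 25.9 CPM in T-HESC, a 20.9-fold lower level (log2 -4.39 ± 0.129, edgeR adjusted p = 1.79e-08). CHAC1 (ENSG00000128965, chr15:40952962-40956512), which degrades glutathione, was 5.77-fold lower in T-HESC, at 13.2 ± 5.11 against 76.1 ± 7.77 CPM (SD, n = 3 each). Neither gene had overlapping libraries between the lines.

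SESN2 (ENSG00000130766, chr1:28259518-28282491) and DDIT4 (REDD1, ENSG00000168209, chr10:72273919-72276036) both restrain mTORC1. SESN2 was at 113 ± 3.19 CPM in HEC-1A and 29 ± 3.39 CPM in T-HESC with DMSO, 3.92-fold lower. DDIT4 was at 186, 186 and 178 CPM in HEC-1A and at 19, 37.6 and 4.79 CPM in T-HESC, 8.96-fold lower by the fit (adjusted p = 0.000669). The HEC-1A values were close together, whereas the highest T-HESC value was 7.85 times the lowest.

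The serine pathway was split between the lines. PHGDH (ENSG00000092621, chr1:119648411-119744218) catalyses the first committed step of serine synthesis and PSAT1 (ENSG00000135069, chr9:78297125-78330093) the next. PHGDH had 6, 3 and 5 counts in the HEC-1A DMSO libraries (0.394 ± 0.136 CPM) and 1166, 1038 and 594 counts in those of T-HESC (77.7 ± 16 CPM). The log2 difference was 7.59 ± 0.278 (edgeR, adjusted p = 5.32e-08), and it rests on a summed 14 counts in HEC-1A. PSAT1 went the other way, at 501 ± 9.51 CPM in HEC-1A and 46 ± 8.34 CPM in T-HESC, 11-fold lower (log2 -3.46 ± 0.144, adjusted p = 1.08e-07). HEC-1A thus held ample mRNA of the second enzyme and almost none of the first. PSPH, the last enzyme of the pathway, was lower in T-HESC like PSAT1 (log2 -2.44 ± 0.131, adjusted p = 5.16e-07), as were SHMT2 (-1.61 ± 0.0848, adjusted p = 4.6e-07) and MTHFD2 (-2.51 ± 0.113, adjusted p = 1.75e-07), which pass serine carbon into the folate cycle. ALDH1L2, a mitochondrial folate enzyme, was called higher in T-HESC like PHGDH, at 12.4 ± 2.51 CPM against 0.116 ± 0.138 CPM in HEC-1A.

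ASNS (asparagine synthetase, ENSG00000070669, chr7:97851677-97872542) had 89, 102 and 91 counts in HEC-1A with DMSO and 8, 10 and 1 in T-HESC, that is 7.87 ± 0.48 and 0.51 ± 0.373 CPM. The log2 difference was -3.87 ± 0.386 (edgeR, adjusted p = 2.51e-05). Its count is uncertain. A read-through transcript on the same strand, ENSG00000284707, covers 49.3% of its exon length, how reads that fall in 2 genes were handled is not stated, and that transcript itself had 14 to 22 counts in the HEC-1A DMSO libraries. ASNS and PSAT1 also have 4 named pseudogenes each.

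**Figure D1:**
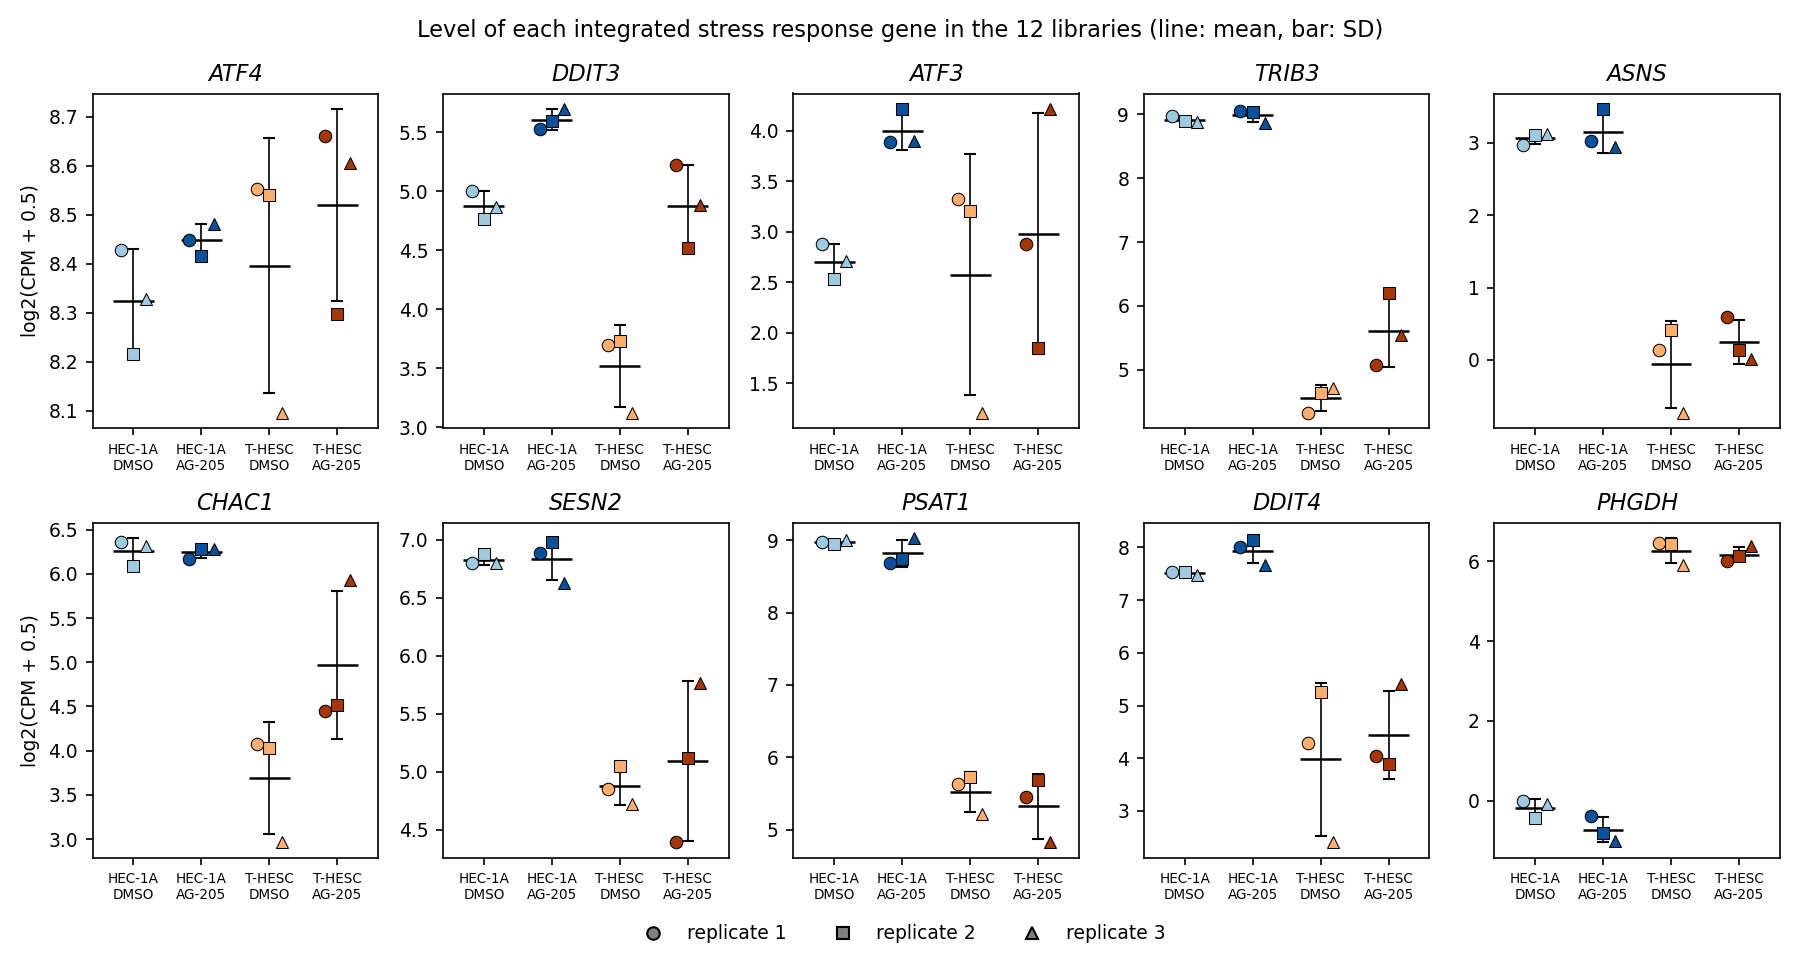
Level of the 10 genes in the 12 libraries as log2(CPM + 0.5), with replicates 1, 2 and 3 as circles, squares and triangles, the mean as a line and the SD as a bar. T-HESC libraries lie far below those of HEC-1A for TRIB3, PSAT1, ASNS and DDIT4 and far above them for PHGDH, and T-HESC DMSO replicate 3 is the lowest library of its group for 9 of the 10 genes.

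**Figure D2:**
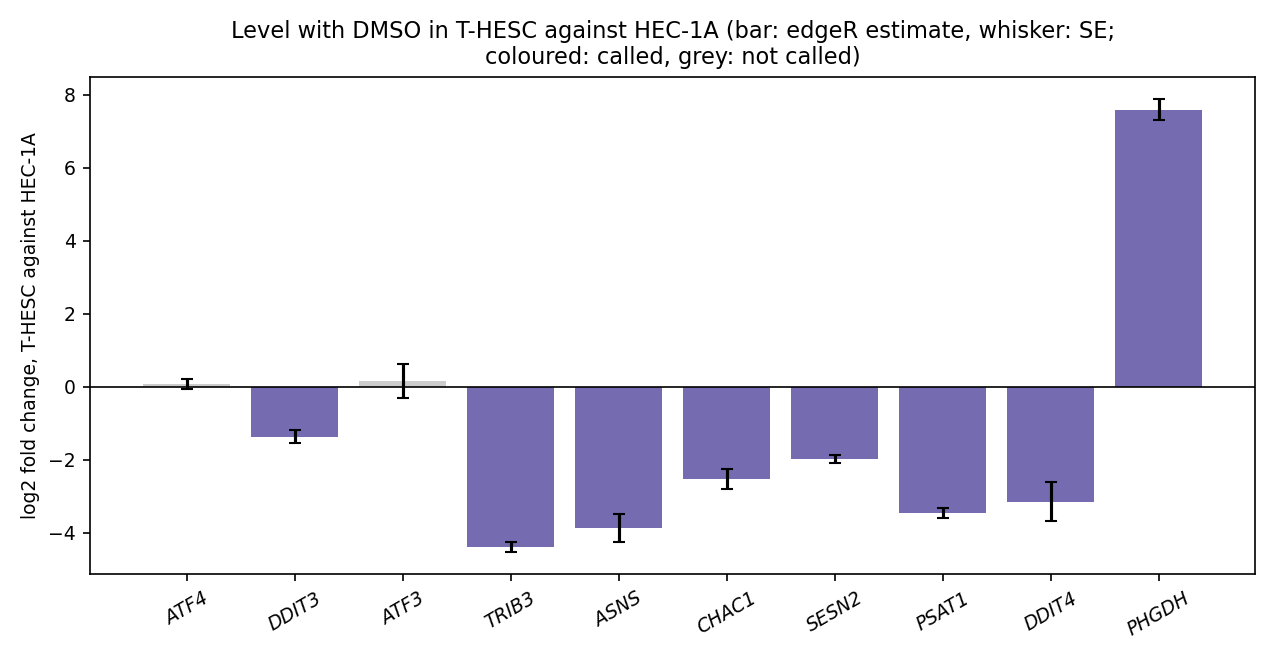
Log2 fold change of T-HESC against HEC-1A with DMSO for the 10 genes, as edgeR estimates with SE, coloured where called. Of the 10 genes, 7 are called lower in T-HESC, PHGDH is called higher, and ATF4 (0.07) and ATF3 (0.15) lie near 0.

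Levels of different genes were compared per kilobase of merged exons (GENCODE 44). The authors counted reads on an Ensembl annotation of GRCh38, whose exons can differ from these. In HEC-1A with DMSO the most abundant of the 10 on this scale were PSAT1 at 227 CPM per kb, TRIB3 at 146 and ATF4 at 123, and the least were ASNS at 1.61, ATF3 at 1.51 and PHGDH at 0.0429. In T-HESC with DMSO, ATF4 stood alone at 130 CPM per kb, with PSAT1 next at 20.8 and ASNS last at 0.104. Merged exons of PHGDH span 9187 bases because many transcripts are annotated, which lowers its value on this scale.

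In HEC-1A cultured with AG-205, ATF3 rose and DDIT3 and DDIT4 were higher by smaller folds. No gene of amino acid synthesis among the members passed the test with every HEC-1A library in the fit. ATF3 was the 1 gene of the 9 tested that was called, against 2.58% of the 14122 genes tested that were called higher. DDIT3 and DDIT4 passed the adjusted p as well but not the fold limit, which made 3 of 9 higher at an adjusted p under 0.05 with any fold, against 7.35% of all genes tested. These 3 were also the genes whose AG-205 libraries all lay above all DMSO libraries, which held for 16.4% of all genes tested. The median log2 fold change of the 9 genes was 0.12, against 0.01 for all genes. With DESeq2 it was 0.07 against 0.05, and with no filter on low counts 0.10 against 0.07.

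ATF3 was measured at 14.3, 18.1 and 14.4 CPM with AG-205 and at 6.83, 5.26 and 6.02 CPM with DMSO, a 2.59-fold rise (log2 1.37 ± 0.156, edgeR adjusted p = 0.000122). The lowest AG-205 value, 14.3, was well above the highest DMSO value, 6.83. The window of its upstream start holds the element printed above. Leaving out each library in turn kept the call, with log2 fold changes of 1.26 to 1.47, while a fit in which HEC-1A shared its estimate of spread with T-HESC gave the same log2 fold change and an adjusted p of 0.547.

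DDIT3 was at 45.6, 47.9 and 51.5 CPM with AG-205 and at 31.6, 26.7 and 28.7 CPM with DMSO, 1.66-fold higher (log2 0.74 ± 0.105, edgeR adjusted p = 0.000748). DDIT4 was at 257, 281 and 204 CPM against 186, 186 and 178 CPM, 1.35-fold higher (log2 0.43 ± 0.111, adjusted p = 0.0252). The lowest DDIT4 value with AG-205 was that of replicate 3, the shallowest of the 12 libraries. Without any 1 of the other 5 HEC-1A libraries DDIT4 no longer passed (edgeR adjusted p = 0.0774 to 0.127), whereas without AG-205 replicate 3 it did (log2 0.54, adjusted p = 2.09e-06). DDIT3 passed with each library left out in turn (adjusted p at most 0.00982).

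With every HEC-1A library in the fit, none of the other 6 genes tested there reached an adjusted p under 0.05 in edgeR, and none had an unadjusted p under 0.05. ATF4 was at 349 ± 8.05 CPM with AG-205 against 321 ± 23.3 with DMSO (log2 0.12 ± 0.0917). TRIB3 was at 506 ± 36.1 against 481 ± 16.5 CPM (0.07 ± 0.0915), and CHAC1, whose promoter window holds the element, at 75.3 ± 3.2 against 76.1 ± 7.77 CPM (-0.01 ± 0.0999). The SEs of these 3 genes, 0.0915 to 0.0999, were below those of DDIT3, DDIT4 and ATF3, 0.105 to 0.156.

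SESN2 was at 114 ± 14.3 CPM with AG-205 and 113 ± 3.19 with DMSO (log2 0.02 ± 0.101). PSAT1 was at 409, 427 and 522 CPM with AG-205 and 501, 492 and 511 CPM with DMSO (log2 -0.15 ± 0.108, edgeR adjusted p = 0.431), with AG-205 libraries on both sides of the DMSO range. Without AG-205 replicate 3 its log2 fold change was -0.27, and its lowest edgeR adjusted p with 1 library left out was 0.00896. ASNS was at 8.47 ± 1.83 against 7.87 ± 0.48 CPM (0.12 ± 0.169). PHGDH did not pass the count filter in HEC-1A, with 4, 1 and 0 counts in the AG-205 libraries against 6, 3 and 5 in those with DMSO. The epithelial markers moved in the same libraries: their summed level was 1983.4 to 2049.9 CPM with AG-205 against 1299.4 to 1458.9 CPM with DMSO. Of 6 markers, 2 were called higher (CLDN4 and KRT19), against 2.58% of all genes tested. Their part in the results above was not tested.

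In T-HESC, DDIT3, TRIB3 and CHAC1 had the larger estimates, and none of the 9 genes tested was called. DDIT3 was at 36.8, 22.4 and 29.1 CPM with AG-205 and at 12.5, 12.8 and 8.19 CPM with DMSO (log2 1.38 ± 0.3, edgeR adjusted p = 0.312). TRIB3 was at 33.4, 73.5 and 46.4 CPM against 19.5, 24.3 and 25.9 CPM (1.12 ± 0.312, adjusted p = 0.492). CHAC1 was at 21.4, 22.3 and 60.5 CPM against 16.4, 15.8 and 7.29 CPM (1.37 ± 0.491, adjusted p = 0.703).

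In these 3 of the 9 genes tested the lowest AG-205 library exceeded the highest DMSO library, as it did in 6.23% of all genes tested. The library with the highest value differed from gene to gene, replicate 1 for DDIT3, replicate 2 for TRIB3 and replicate 3 for CHAC1. Calls were rare in this line at large: 11 genes, or 0.08% of the 13753 tested, were called higher. By edgeR 0 of 9 members were called and 3 had an unadjusted p under 0.05, a count without the share of all genes beside it. DESeq2 called DDIT3 (log2 1.38, adjusted p = 0.00868), and limma-voom with quality weights called TRIB3 (1.47, adjusted p = 0.00709). Without filtering low counts edgeR called DDIT3 and CHAC1, and with all 12 libraries in 1 fit it called DDIT3 and TRIB3.

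Leaving out AG-205 replicate 1, the library that stood apart, gave log2 fold changes of 1.17 for DDIT3, 1.34 for TRIB3 and 1.61 for CHAC1, with 0 of 9 genes called. The TRIB3 estimate fell to 0.74 without AG-205 replicate 2, and the CHAC1 estimate fell to 0.72 without AG-205 replicate 3. The SEs in this line were larger than those in HEC-1A (0.3 against 0.105 for DDIT3).

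The other T-HESC genes had AG-205 and DMSO libraries that overlapped. ATF3 was at 6.86, 3.09 and 18.1 CPM with AG-205 and at 9.49, 8.7 and 1.8 CPM with DMSO (log2 0.46 ± 0.737, edgeR adjusted p = 0.993), so that the highest and the lowest values were both replicate 3. DDIT4 had the same shape, at 16, 14.3 and 41.9 CPM against 19, 37.6 and 4.79 CPM (0.20 ± 0.695). Without AG-205 replicate 3 both estimates turned negative, to -0.45 in each case.

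SESN2 was at 20.5, 34.3 and 54.1 CPM with AG-205 against 28.4, 32.6 and 26 CPM with DMSO (log2 0.30 ± 0.344). Its estimate was 0.58 without AG-205 replicate 1, the library that stood apart, and -0.09 without AG-205 replicate 3. ATF4 (369 ± 48.1 against 340 ± 58 CPM, 0.10 ± 0.245), PSAT1 (40.8 ± 11.9 against 46 ± 8.34 CPM, -0.19 ± 0.287) and PHGDH (71.9 ± 9.93 against 77.7 ± 16 CPM, -0.13 ± 0.239) each moved by less than their SE. ASNS did not pass the count filter, with 11, 8 and 6 counts against 8, 10 and 1. The median log2 fold change of the 9 genes tested was 0.30, against 0.02 for all genes, with 7 of the 9 above 0. With limma-voom and quality weights the median turned to -0.15, against -0.04 for all genes, with 4 of the 9 above 0.

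Single T-HESC cultures were the lowest or the highest of their group for several of the 10 genes. With DMSO, replicate 3 was the lowest of its group for 9 of the 10 genes, TRIB3 being the exception. With AG-205, replicate 3 was the highest for 5 of them (ATF3, CHAC1, SESN2, DDIT4 and PHGDH). How often this held over all genes was not counted, so it is not read as particular to these genes. Across genes, counts of DMSO replicate 3 departed more from those of replicates 1 and 2 (chi-square per degree of freedom 47.3 and 40.8) than these did from each other (11.2). The T-HESC AG-205 libraries departed more still. Their values were 160 and 207 for replicate 1 against replicates 2 and 3, and 64.5 for replicate 2 against replicate 3. The highest DMSO value was 5.28 times the lowest for ATF3 and 7.85 times for DDIT4, against a median of 1.34 over all genes tested in that group and 1.3 and 1.04 for the same genes in HEC-1A with DMSO. As RNA was taken from whole cultures, fewer cells with a transcript and less of it per cell cannot be told apart.

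**Figure D3:**
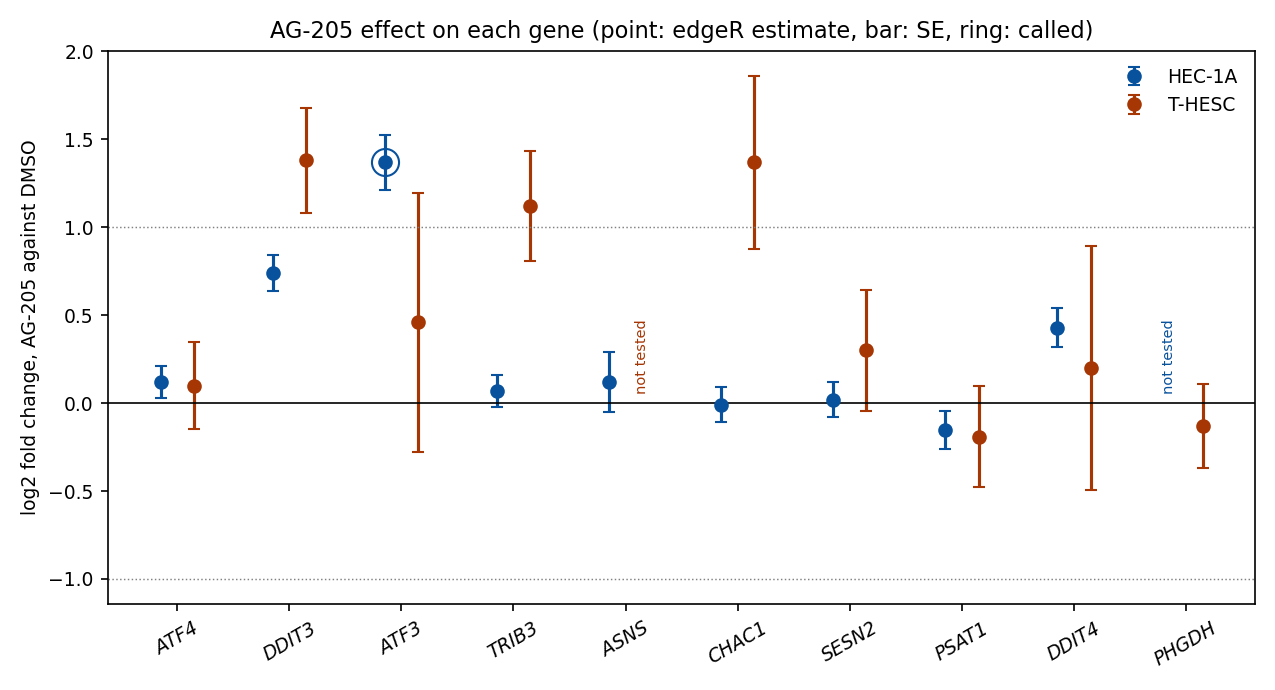
Log2 fold change of AG-205 against DMSO for the 10 genes in HEC-1A and T-HESC, as edgeR estimates with SE, ringed where called and with dotted lines at the fold limit. ATF3 in HEC-1A (1.37) is ringed, the T-HESC estimates of DDIT3 (1.38), TRIB3 (1.12) and CHAC1 (1.37) lie above the limit with wider SEs, and PSAT1 lies slightly below 0 in both lines.

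Whether AG-205 acted differently in the lines was tested with an interaction term over the 12 libraries. None of the 10 genes was called (28 of 16132 genes, 0.174%, were), and DESeq2 called 0. Before adjustment 3 had an edgeR p under 0.05, a count given without the share of all genes. These 3 were TRIB3 (T-HESC minus HEC-1A 1.07 ± 0.338, adjusted p = 0.495), CHAC1 (1.41 ± 0.53, adjusted p = 0.638) and DDIT3 (0.65 ± 0.297, adjusted p = 0.771). For TRIB3, limma-voom with quality weights gave a call, and edgeR did so without T-HESC AG-205 replicate 1 (1.30, adjusted p = 0.0338). CHAC1 was called by edgeR with no filter on low counts (1.44). ATF3 differed by -0.89 ± 0.82 in the other direction (adjusted p = 0.955). The call of ATF3 in HEC-1A and its absence in T-HESC therefore do not show a difference between the lines.

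The order of the 4 groups differed from gene to gene. For TRIB3, CHAC1, SESN2, PSAT1, DDIT4 and ASNS, every HEC-1A library, with AG-205 or DMSO, was above every T-HESC library. For PHGDH the reverse held. How many of all genes were separated in this way was not counted, so the separation is not read as particular to these genes. By a different measure, the calls with DMSO alone, 22.3% of all genes tested were lower in T-HESC and 22.3% higher. DDIT3 ran from HEC-1A with AG-205, through T-HESC with AG-205 and HEC-1A with DMSO, whose libraries overlapped (22.4 to 36.8 and 26.7 to 31.6 CPM), down to T-HESC with DMSO. For ATF4 each group overlapped its neighbour in the order. For ATF3 the groups overlapped their neighbours as well, although the AG-205 and DMSO libraries of HEC-1A did not overlap each other.

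The rest of the pathway was read from fixed lists of related genes. Upstream, of 19 genes for eIF2, its kinases, its exchange factor and its phosphatases, 1 was called higher with AG-205 in HEC-1A and 3 passed the adjusted p, all higher. Of all genes tested there, 2.58% were called higher and 7.35% were higher at an adjusted p under 0.05 with any fold. PPP1R15A (GADD34), the stress-induced subunit that directs dephosphorylation of eIF2, rose in HEC-1A from 69.3, 65.6 and 70.6 CPM to 144, 168 and 131 CPM (log2 1.11 ± 0.104, edgeR adjusted p = 2.21e-05). In T-HESC it was at 270, 285 and 505 CPM against 195, 240 and 175 CPM (0.78 ± 0.305, adjusted p = 0.83), so that all AG-205 libraries were above all DMSO libraries there too. EIF2AK3 (PERK), the eIF2 kinase of the endoplasmic reticulum, was higher in HEC-1A below the fold limit (0.88 ± 0.145, adjusted p = 0.00208), with 0.50 ± 0.243 in T-HESC (adjusted p = 0.981). DNAJC3, an inhibitor of that kinase, was the other gene to pass the adjusted p in HEC-1A (0.39 ± 0.0991, adjusted p = 0.0244), and it reached an adjusted p of 0.122 with 1 library left out. The other kinases had HEC-1A estimates of -0.16 (EIF2AK1), -0.19 (EIF2AK2) and -0.25 (EIF2AK4), none with an adjusted p under 0.05.

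Of 6 partners and coregulators of ATF4, none was called in either line by edgeR, and 2 in each line had an unadjusted p under 0.05. NUPR1, a small stress-induced chromatin protein, went from 151 ± 9.91 to 240 ± 17.8 CPM in HEC-1A (log2 0.67 ± 0.0965, adjusted p = 0.000859). In T-HESC with AG-205 its mean was 207 ± 82 CPM against 77.1 ± 32.5 (1.42 ± 0.432, adjusted p = 0.558). CEBPB, a dimer partner of ATF4, was at 287, 156 and 349 CPM with AG-205 in T-HESC against 104, 144 and 77.5 CPM (1.27 ± 0.369, adjusted p = 0.526), with -0.05 ± 0.0932 in HEC-1A. ATF5, which shares the translational control of ATF4, had an estimate of -0.31 ± 0.0935 in HEC-1A (adjusted p = 0.0506).

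Downstream, the metabolic lists did not rise. Of 10 amino acid transporters, 0 were called in HEC-1A by edgeR, and 2 passed the adjusted p in the lower direction, as 4.28% of all genes tested did at any fold: SLC7A5, the leucine carrier (log2 -0.42 ± 0.109, adjusted p = 0.0279), and SLC1A5, the glutamine carrier (-0.36 ± 0.0943, adjusted p = 0.0274). Of 13 genes for aminoacyl-tRNA synthetases and tRNA export, 12 had estimates below 0 in HEC-1A, 6 had an unadjusted p under 0.05, and 2 passed the adjusted p, LARS1 (-0.37 ± 0.0887, adjusted p = 0.0184) and EPRS1 (-0.34 ± 0.0895, adjusted p = 0.0274). Of 10 tested genes of serine, folate and amino acid synthesis, 3 passed in the same direction, ALDH18A1 (-0.41 ± 0.0834, adjusted p = 0.0072), MTHFD1L (-0.36 ± 0.0896, adjusted p = 0.022) and PYCR1 (-0.35 ± 0.0935, adjusted p = 0.0304). Without HEC-1A DMSO replicate 2 or without DMSO replicate 3 none of these 7 genes passed, their highest adjusted p with 1 library left out being 0.0576 (ALDH18A1) to 0.186 (EPRS1). Each of the 7 kept its direction, and each passed without AG-205 replicate 3. The medians of the 3 lists in HEC-1A were -0.11, -0.16 and -0.20, against 0.01 for all genes.

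In T-HESC none of these 3 lists had a gene with an edgeR adjusted p under 0.05, and 1 gene in all, SLC38A1 (log2 0.51 ± 0.218), had an unadjusted p under 0.05. The smallest p values of the other 2 lists belonged to XPOT (0.52 ± 0.245) and NARS1 (0.29 ± 0.21), and to SHMT2 (0.33 ± 0.193) and GPT2 (-0.47 ± 0.286). The list medians in T-HESC were -0.15, 0.04 and -0.23, against 0.02 for all genes.

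Among 12 effectors and secreted proteins, 1 was called in HEC-1A and 4 passed the adjusted p, all higher. The shares of all genes tested were 2.58% called higher and 7.35% higher at that adjusted p with any fold. NDRG1, a stress- and hypoxia-responsive gene, rose from 43.2, 41.7 and 39.5 CPM to 104, 127 and 81.5 CPM (log2 1.33 ± 0.138, edgeR adjusted p = 5.21e-05), with -0.23 ± 0.293 in T-HESC. BBC3 (PUMA), a cell death gene (0.92 ± 0.143, adjusted p = 0.00133), and ERO1A, an oxidase of the endoplasmic reticulum (0.37 ± 0.0938, adjusted p = 0.0225), were higher below the fold limit, and ERO1A reached an adjusted p of 0.145 with 1 library left out. GDF15, a secreted stress cytokine, had the largest T-HESC estimate of the listed genes. It was at 100, 220 and 241 CPM with AG-205 in T-HESC against 30.6, 26.7 and 33.7 CPM with DMSO (2.61 ± 0.349, edgeR adjusted p = 0.0621), and at 1075.7 ± 5.57 against 707 ± 35.8 CPM in HEC-1A (0.61 ± 0.0901, adjusted p = 0.000974). Its AG-205 libraries were above its DMSO libraries in both lines. In T-HESC its adjusted p was slightly above the threshold, and its lowest AG-205 value, 100 CPM, was that of replicate 1, the library that stood apart. A fit of GDF15 without that library is not given here. EIF4EBP1, the translation repressor, had the next smallest T-HESC p (0.55 ± 0.329, adjusted p = 0.993).

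**Figure D4:**
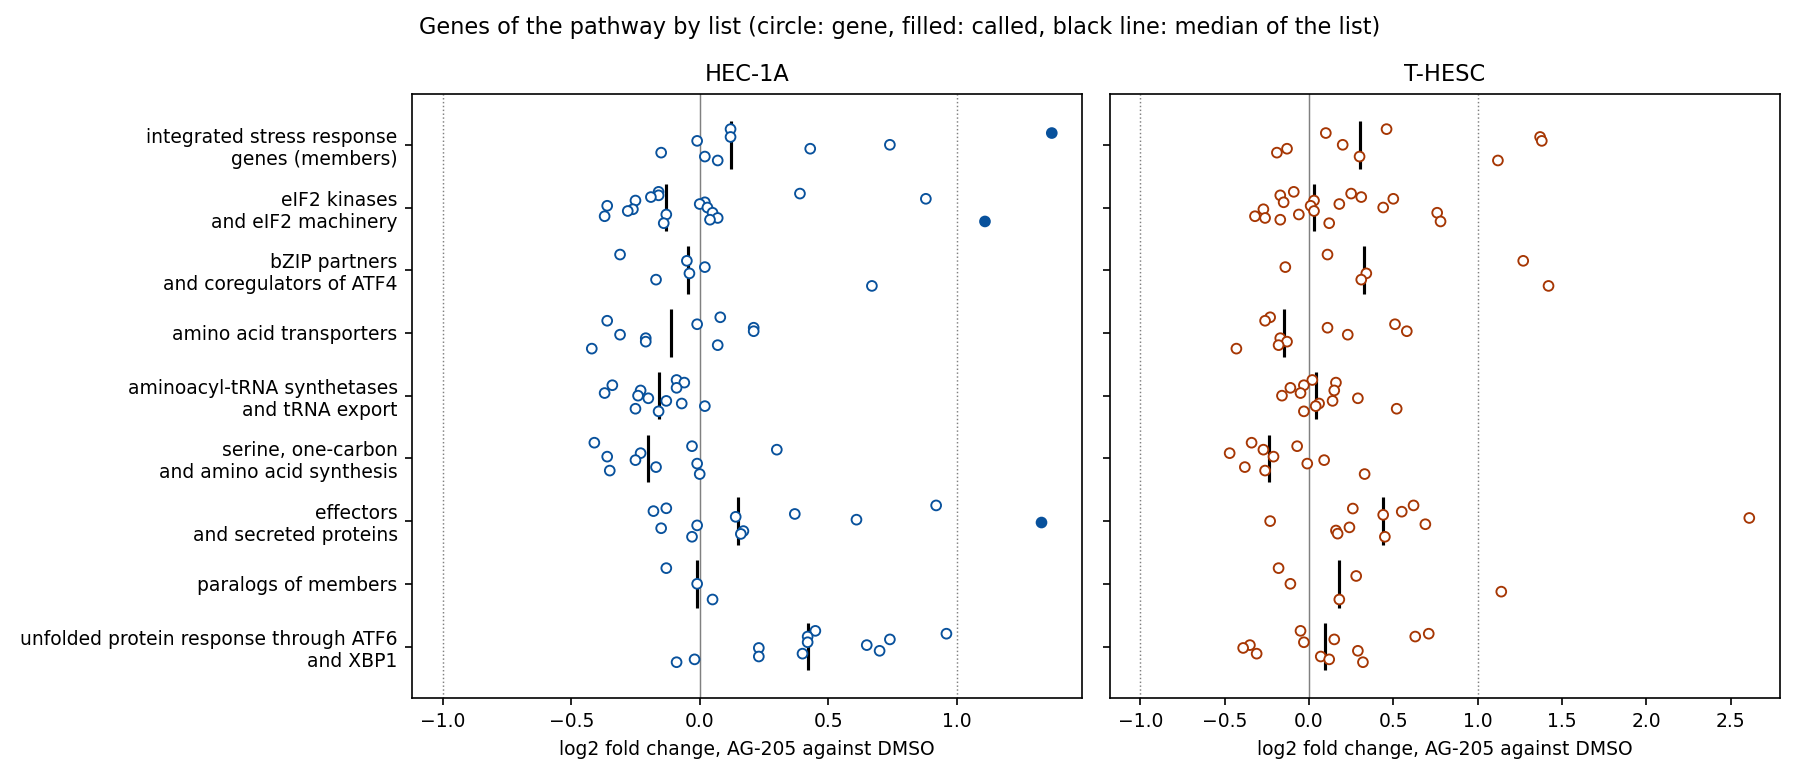
Log2 fold change of AG-205 against DMSO for each tested gene of the 10 members and of 8 lists of related genes in HEC-1A (left) and T-HESC (right), filled where called, with the median of each list as a black line and dotted lines at the fold limit. In HEC-1A, ATF3, PPP1R15A and NDRG1 are filled and the tRNA synthetase genes lie mostly below 0, whereas in T-HESC no gene is filled and GDF15 lies farthest to the right at 2.61.

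With DMSO alone the metabolic lists were lower in T-HESC, like 7 of the members. Of all genes tested, 22.3% were called lower in T-HESC and 22.3% higher. Of 10 amino acid transporters 6 were called lower in T-HESC and 1 higher, of 13 tRNA synthetase and export genes 11 were called lower and 0 higher, and of 11 genes of serine, folate and amino acid synthesis 8 were called lower and 1 higher. These lists had median log2 differences of -1.66, -1.21 and -2.51. Of the 12 effectors and secreted proteins 8 were called lower and 1 higher (median -2.15). Of the 6 partners of ATF4, 2 were called lower and 0 higher (median -0.70), a count not far from the share over all genes. The other lists did not have this direction, with 3 of the 19 eIF2 genes called lower and 2 higher (median -0.13), and 1 of the 12 genes of the unfolded protein response called in each direction (median 0.21). ATF5 was lower in T-HESC by a log2 difference of -4.88 ± 0.12 (edgeR adjusted p = 8.41e-09), from 969 ± 50.3 to 33.3 ± 3.37 CPM. PPP1R15A was higher in T-HESC (1.56 ± 0.126, adjusted p = 6.73e-06).

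The paralogs of the members also differed between the lines. Of the 4 tested, 2 were called higher and 1 lower, with a median of 0.81, where 22.3% of all genes tested were called in each direction. TRIB2 (5.88 ± 0.428, edgeR adjusted p = 3.46e-06) and SESN1 (2.24 ± 0.274, adjusted p = 9.17e-05) were called higher in T-HESC with DMSO, where TRIB3 and SESN2 were lower. TRIB1 was called lower there (-2.18 ± 0.129, adjusted p = 9.42e-07). With AG-205 in T-HESC, TRIB1 was at 27.3, 17.9 and 38.2 CPM against 13.1, 13.8 and 10.4 CPM (1.14 ± 0.319, adjusted p = 0.492), close to the estimate of TRIB3, and none of the 5 paralogs tested in T-HESC or of the 3 tested in HEC-1A was called. In HEC-1A the smallest p values were those of CHAC2 (-0.13 ± 0.181) and TRIB1 (0.05 ± 0.0942), and in T-HESC that of TRIB2 (0.18 ± 0.255) followed TRIB1.

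The genes whose levels followed the members most closely were sought by correlating log2 CPM, standardised within each line, with the mean of the 8 members tested in both lines, over the 12 libraries. The 5 highest Pearson correlations belonged to PIK3IP1 (0.96), TOM1 (0.93), FOSB (0.93), HEY1 (0.92) and ARID5A (0.91), out of 12008 genes tested in both lines, members included. The libraries share scaling and treatment, and the values are a description. FOSB, an immediate early transcription factor, had log2 fold changes with AG-205 of 3.91 ± 0.469 in HEC-1A (edgeR adjusted p = 0.000189) and 1.57 ± 0.694 in T-HESC (adjusted p = 0.943), and HEY1, a Notch target, 0.91 ± 0.263 (adjusted p = 0.0424) and 1.00 ± 0.399 (adjusted p = 0.848). PIK3IP1, an inhibitor of phosphoinositide 3-kinase, had 1.18 ± 0.395 (adjusted p = 0.0746) and 1.02 ± 0.435 (adjusted p = 0.917), neither passing the threshold.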

How the data were processed

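The authors selected polyA RNA from 12 cultures, used Trimmomatic 0.38 on paired reads, HISAT2 2.1.0 for alignment to GRCh38, counted reads per gene with featureCounts (Subread 2.0.0) and deposited unnormalized counts, with strand, pair and multiple-match settings not given in the sources used here. Counts were tested with edgeR 4.0.16 (TMM, filterByExpr, quasi-likelihood, Benjamini-Hochberg) in each line, for the difference between lines over 12 libraries, and between lines over the DMSO libraries. The scripts were tested on simulated data. DESeq2 1.42.0, limma 3.58.1, other scalings, filters and thresholds, a replicate block and leaving out each library were alternatives. Members and lists were chosen with earlier results of these data known. Named besides the 10 members were, per list and line, up to 3 called genes of largest change, or else the 2 of smallest p, and the 5 genes most like the members in pattern. Examples chosen after their values were seen were EPCAM, CDH1, PSPH, MTHFD2, ALDH1L2, SESN1, EIF2AK1, EIF2AK2, EIF2AK4, DNAJC3, PYCR1, BBC3, ERO1A and the DMSO comparisons of listed genes. Promoters came from RefSeq, and coordinates, exon lengths and overlaps between genes from GENCODE 44. The authors counted on an Ensembl annotation of GRCh38, so the exons counted can differ. With 3 libraries a group, rank or permutation tests of single genes cannot pass 0.05, so models across genes were used. Levels carry counting error from totals of 7168542 to 15178276.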

Additional observations from a re-analysis of the deposited data

How the results depend on the processing

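Limits. ASNS overlaps another transcript, and how shared reads were counted is not stated. PHGDH (HEC-1A) and ASNS (T-HESC) were too low to test. In HEC-1A, 393 genes and 1 member were called. With no fold limit these were 1643 and 3, and with all 12 libraries in 1 fit 141 and 0. In T-HESC, 11 genes and 0 members were called, against 115 and 1 with DESeq2, 181 and 2 with no filter, 333 and 1 with voom quality weights, 160 and 2 with all 12 libraries in 1 fit, and 0 genes at an adjusted p under 0.01. For the difference between lines, 28 genes and 0 members were called, against 86 genes with DESeq2, 141 and 1 with no filter, 380 and 1 with voom quality weights, and 4 genes at an adjusted p under 0.01. Between lines with DMSO, 6593 genes were called, and 10664 with no fold limit. Leaving out single libraries gave 0 to 72 genes in T-HESC, with 72 without AG-205 replicate 1, and 4 to 80 genes and 0 to 1 members for the difference, with 80 without that library and 59 without T-HESC AG-205 replicate 3. The causes were not tested. With the replicate block, 363 genes were called in HEC-1A, 9 in T-HESC, 0 for the difference between lines and 6594 between lines, with 1, 0, 0 and 8 members. Libraries with the same number had deviations from their group means that correlated at -0.0715, 0.235 and -0.00033 in HEC-1A and 0.2, -0.493 and -0.0264 in T-HESC. The labels do not say which libraries shared a culture experiment, and with 3 libraries a group these correlations cannot decide it.

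Of the log2 fold changes of members and named genes under all alternatives, 1067 kept direction and side of the threshold, 31 passed it, 1 fell below it and 39 changed sign, the latter mostly near 0. Those that passed included genes of the lists, such as NUPR1 and HSPA5 in HEC-1A with no fold limit. Calls of list genes are given above for the main edgeR fit only. Changes of sign in HEC-1A were CHAC1 at 0.00 with upper-quartile factors. In T-HESC they were, with voom quality weights, ATF4 at -0.15, ATF3 at -0.84 and DDIT4 at -0.53. For the difference they were ATF4 at 0.02 with no filter and 0.00 with the replicate block, and with voom quality weights ASNS at -0.19 and PSAT1 at 0.09. Between lines with DMSO it was ATF4 at -0.08 with upper-quartile factors. With single libraries left out, the log2 fold changes that changed sign ran in HEC-1A from -0.07 to 0.20 for ASNS, -0.10 to 0.03 for CHAC1, -0.04 to 0.11 for SESN2, -0.31 to 0.03 for CHAC2 and -0.01 to 0.10 for TRIB1. In T-HESC they ran from -0.04 to 0.19 for ATF4, -0.45 to 0.87 for ATF3, -0.09 to 0.58 for SESN2, -0.40 to 0.03 for PSAT1 and -0.45 to 1.00 for DDIT4. For the difference they ran from -0.13 to 0.09 for ATF4, -0.13 to 0.77 for ASNS, -0.10 to 0.59 for SESN2, -0.24 to 0.19 for PSAT1 and -0.87 to 0.57 for DDIT4, and between lines with DMSO from -0.15 to 0.62 for ATF3.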

Other observations

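The branches of the unfolded protein response that run through ATF6 and XBP1, beside the eIF2 branch, were read from 12 genes. In HEC-1A 8 of the 12 passed the adjusted p of edgeR with AG-205, all higher and all below the fold limit. Of all genes tested, 7.35% were higher at that adjusted p with any fold. The list median was 0.42 on the log2 scale, against 0.01 for all genes. HSPA5, DNAJB9, HERPUD1 and MANF passed with each library left out in turn, and the other 4 did not. HSPA5 (BiP), the main chaperone of the endoplasmic reticulum, was at 848, 974 and 852 CPM against 591, 548 and 565 CPM with DMSO (log2 0.65 ± 0.0953, adjusted p = 0.000929), and DNAJB9, its cochaperone, was at 15, 20.3 and 18.3 CPM against 9.29, 9.8 and 8.44 CPM (0.96 ± 0.145, adjusted p = 0.00115). In T-HESC 0 of the 12 passed, 2 had an unadjusted p under 0.05, EDEM1 (0.63 ± 0.26) and DNAJB9 (0.71 ± 0.303), and the median was 0.09 against 0.02. HSPA5 was at 668, 874 and 507 CPM against 819, 841 and 931 CPM there (-0.35 ± 0.268), and 0 of the 12 differed between the lines by the interaction test, 3 having an unadjusted p under 0.05.

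Among the markers of cell type, CLDN4 (log2 1.22 ± 0.109, edgeR adjusted p = 1.37e-05) and KRT19 (1.09 ± 0.0861, adjusted p = 4.59e-06) were called higher with AG-205 in HEC-1A. In T-HESC, KRT19 was at 249, 177 and 237 CPM against 110, 106 and 103 CPM (1.05 ± 0.227, adjusted p = 0.312), and KRT18 had an estimate of -1.47 ± 0.491 (adjusted p = 0.664). The stromal markers COL1A1 and COL1A2 had estimates of -1.09 ± 0.524 and -0.46 ± 0.441 in T-HESC, and COL1A1 and COL6A3 had 0.27 ± 0.231 and -0.65 ± 0.37 in HEC-1A, none with an adjusted p under 0.05. PTPRC, the leukocyte marker with enough counts to be tested in T-HESC, had -1.92 ± 0.639 (adjusted p = 0.664).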
